A study of Mus musculus with 39 samples.

Results

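Resident tissue macrophage genes were followed in epididymal adipose tissue, the fat pad beside the epididymis of the male mouse. The set held 9 genes, Mrc1, Cd163, Lyve1, Folr2, Retnla, Clec10a, Chi3l3, Arg1 and Csf1r, of 29411 gene names on the array. They were found by name among its 40628 probes, 8 by the array's own gene name and 1, Clec10a, by the accession of the probe that the array calls Mgl1. The probe with the highest mean level was taken for each gene, and the other probes of Retnla and Csf1r served as a check.

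RNA of C57BL/6J mice, put on diet after weaning, was measured on 39 one-colour Agilent arrays, with 1 array per diet and time point. The control diet, LFC, drew 10% of its calories from fat (11 arrays, at days 1, 6, 10 and 14 and weeks 0, 3, 6, 9, 12, 15 and 18). HFC, rich in fat and sucrose, drew 60% from fat (10 arrays, at the same time points without day 1), and in HF5, HF20 and HF75 it was given with 5, 20 or 75 µg of KAL-1, a plant formulation (6 arrays each, at weeks 3 to 18). The labels name no transgene and give 30 animals per diet but not how many stood behind an array. They also do not say how the days relate to week 0. A paper on the liver arrays of this experiment counted the weeks from day 14, which makes week 0 and day 14 the same time.

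Resident macrophages of fat sit around adipocytes, vessels and lymphatics, where they take up debris, iron and lipid. They depend on signalling through the receptor for CSF1 and IL-34, and many carry scavenger receptors and lectins. Interleukin 4 and interleukin 13 act through STAT6 and induce several of the genes described here, a state often called alternative activation. In obesity other macrophages are recruited to crowns around dying adipocytes, and those carry other markers.

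All levels below are log2 of the processed probe signal minus the 75th percentile of the array, so a level of 0 lies at that percentile, and levels of different probes are not compared. The brightest probes of 8 members were well above background on 39 of 39 arrays, and that of Arg1 on 31. All 10 adipocyte markers were above background on every array, and of 17 general macrophage markers 11 were, the others on at least 28 arrays. The LFC week 3 and HFC week 12 arrays stood apart: 97.1% and 94.5% of their probes were well above background, against 53.7 to 79.6% on the other 37, and they held 16431 and 10531 spots marked as outliers, against 21 to 387. Member levels and list differences include these arrays, correlations leave them out, and the main member differences are given both ways. At week 6 the arrays also differed in the score of 6 visceral depot genes, the median of their centred levels. It was -3.57 on LFC, -4.15 on HFC, -5.20 on HF5 and -5.92 on HF75, but 0.47 on HF20. Low scores also occurred at week 3, with -2.20 on HF20 and -2.19 on HF75, and at week 18, with -2.87 on LFC. Whether another depot was sampled on any of these arrays was not tested. The scan day ran with the time point, with 13 days for 11 time points. Diets were thus compared mostly within a day and time points were not. In whole tissue, fewer cells of a type and less RNA per cell cannot be told apart. With single arrays, the p-values of diet comparisons measure how far the diet differences varied over time points. Those within a diet measure the spread between its arrays.

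Promoters are shown for a pair of members that moved together, Retnla and Mrc1. They are the 250 bases before the start of transcription in RefSeq on build GRCm38.p6, read 5′ to 3′ on the strand of the gene. Capitals mark matches on either strand to the motifs of STAT6 (TTC and GAA with 4 bases between), GAGGAAG (PU.1), TTGCNNAA (C/EBP) and TGCTGAC (MAF).
Retnla, chr16:48842359-48842608, plus strand: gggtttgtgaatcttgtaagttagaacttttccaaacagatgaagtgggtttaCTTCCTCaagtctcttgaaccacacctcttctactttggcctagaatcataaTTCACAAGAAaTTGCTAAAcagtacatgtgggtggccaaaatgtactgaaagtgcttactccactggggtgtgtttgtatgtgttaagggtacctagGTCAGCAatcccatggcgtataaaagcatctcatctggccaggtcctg
Mrc1, chr2:14229164-14229413, plus strand: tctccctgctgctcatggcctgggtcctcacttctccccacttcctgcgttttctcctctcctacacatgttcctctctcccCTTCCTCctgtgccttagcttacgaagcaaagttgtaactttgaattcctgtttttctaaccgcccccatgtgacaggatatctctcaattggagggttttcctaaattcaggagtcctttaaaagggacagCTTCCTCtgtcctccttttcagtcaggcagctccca
The Retnla window held the STAT6 letters at -145 to -136 and, after a gap of 1 base, the C/EBP letters at -134 to -127, beside a PU.1 match at -197 to -191 and a MAF match at -48 to -42. The Mrc1 window held PU.1 matches at -168 to -162 and at -36 to -30. Of 32851 mouse windows of this length, 5.85% held the STAT6 motif, 10.6% the PU.1 motif, 9.56% the C/EBP motif and 3.81% the MAF motif. A match is a description of the letters and not a bound site. The windows of Cd163 and Folr2 held no match. Lyve1, Clec10a and Arg1 had no entry, and those of Chi3l3 and Csf1r are not shown.

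Mrc1, the mannose receptor, ranged on the LFC arrays from -0.51 at week 3 over a median of 1.15 to 2.81 at week 15. On the HFC arrays it ranged from 0.51 at week 12 over a median of 1.65 to 2.26 at week 0. The ranges overlapped, and HFC was the higher of the pair at 7 of 10 time points, by 1.90 at day 10 and 1.54 at day 14. On these 2 days the score of 6 epididymis genes, again the median of centred levels, also differed. It was 4.91 on LFC and 1.86 on HFC at day 10, and 4.14 on LFC and -1.43 on HFC at day 14. Its part in the member differences was not tested. Folr2, folate receptor beta, ranged on LFC from -0.06 at week 3 over a median of 0.94 to 2.96 at week 15, and on HFC from 0.86 at week 12 over a median of 2.29 to 3.12 at week 0. HFC was again the higher at 7 of 10 time points, and for both genes at all 4 of days 6, 10 and 14 and week 0.

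**Figure D1:**
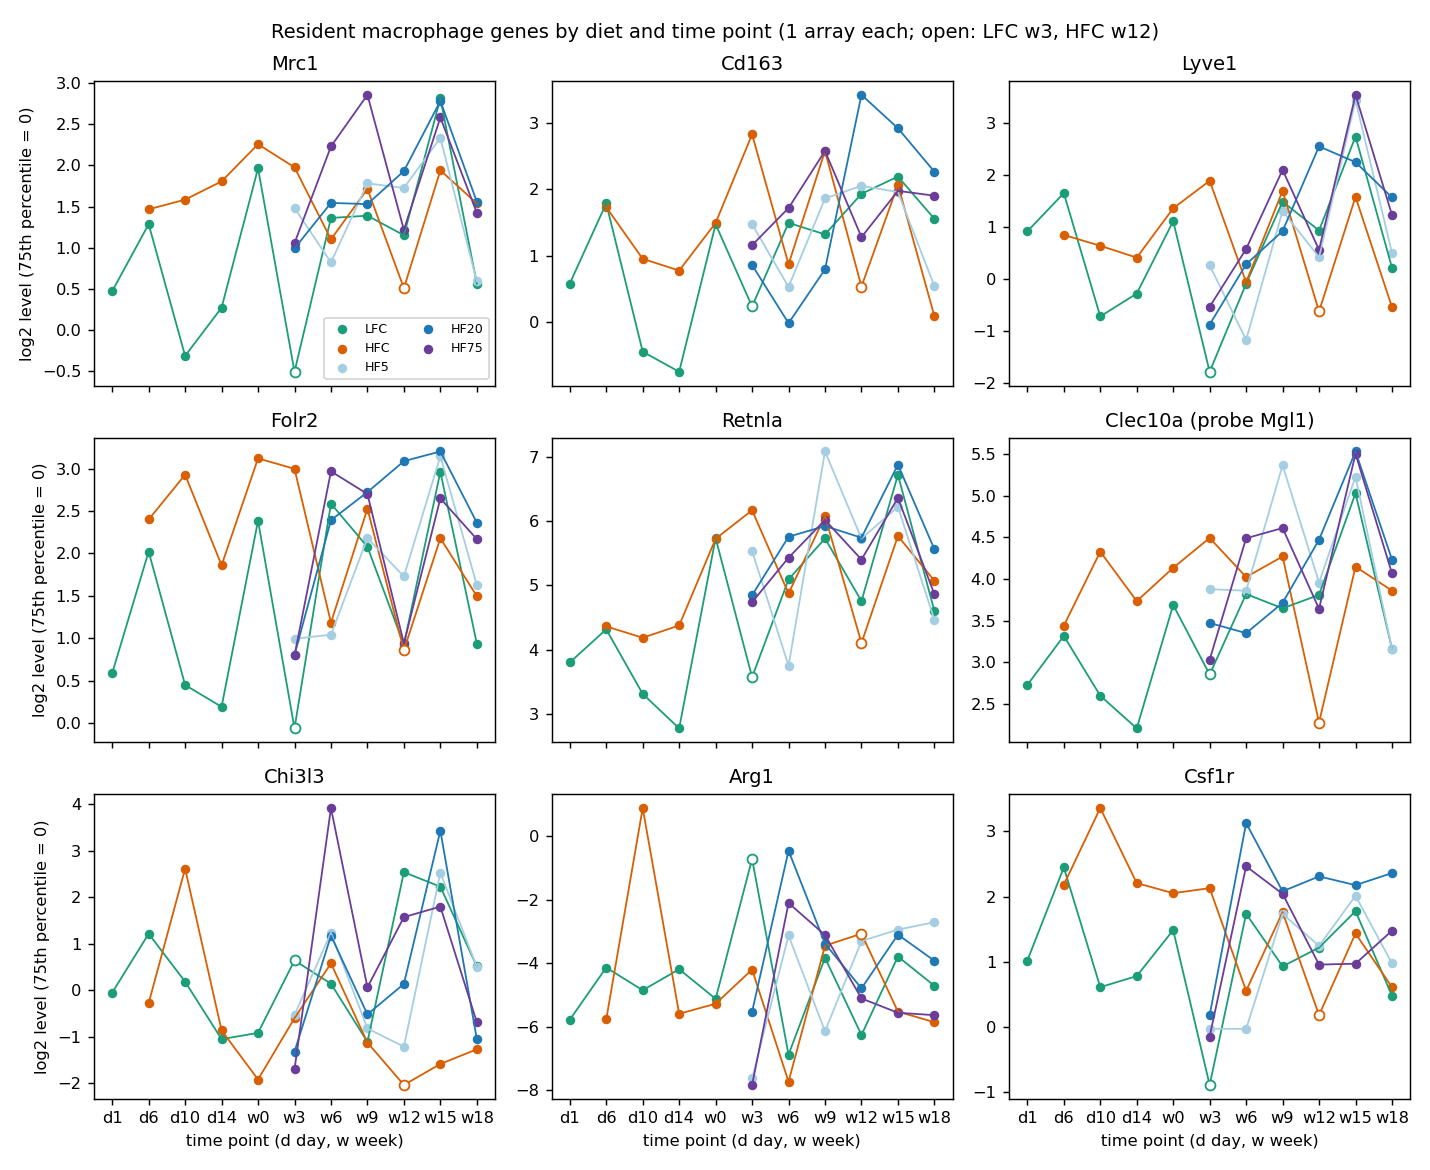
Log2 level (vertical axis, 0 at the 75th percentile of the array) of the 9 members at each time point (horizontal axis, days then weeks), with 1 array per point and diets in colours; open symbols are the LFC week 3 and HFC week 12 arrays. HFC lay above LFC at days 10 and 14 for Mrc1, Folr2, Clec10a and Csf1r, and at week 15 Lyve1 reached 3.54 on HF75 and Clec10a 5.53 on HF20. At days 10 and 14 the epididymis score was higher on LFC than on HFC.

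Cd163, the scavenger receptor for haemoglobin bound to haptoglobin, ranged on LFC from -0.75 at day 14 over a median of 1.47 to 2.19 at week 15, and on HFC from 0.09 at week 18 over a median of 1.22 to 2.83 at week 3. Lyve1, a hyaluronan receptor that lymphatic endothelium also carries, ranged on LFC from -1.79 at week 3 over a median of 0.92 to 2.74 at week 15, and on HFC from -0.62 at week 12 over a median of 0.74 to 1.89 at week 3. For both genes the HFC range lay largely inside the LFC range, with HFC higher at 5 of 10 time points for Cd163 and 6 of 10 for Lyve1.

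Retnla encodes a secreted protein that interleukin 4 induces. It ranged on LFC from 2.77 at day 14 over a median of 4.60 to 6.72 at week 15, and on HFC from 4.10 at week 12 over a median of 4.97 to 6.17 at week 3. Its probe was saturated on 5 arrays (LFC and HFC at week 0, HFC at week 3, HF20 at week 12 and HF5 at week 15), so these levels are lower bounds. The other Retnla probe shares a run of 50 bases with it and is therefore no independent measure. Clec10a, a lectin for galactose and N-acetylgalactosamine, ranged on LFC from 2.20 at day 14 over a median of 3.32 to 5.03 at week 15, and on HFC from 2.28 at week 12 over a median of 4.08 to 4.49 at week 3. Of all members it was the one most often higher on HFC, at 8 of 10 time points, the exceptions being weeks 12 and 15.

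Chi3l3 (RefSeq symbol Chil3) encodes the secreted chitinase-like protein Ym1, which macrophages and neutrophils make. It ranged on LFC from -1.11 at week 9 over a median of 0.18 to 2.53 at week 12, and on HFC from -2.04 at week 12 over a median of -0.997 to 2.61 at day 10. HFC was the lower at 7 of 10 time points, with HFC minus LFC at -4.57 at week 12 and -3.81 at week 15, and the higher by 2.43 at day 10.

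Arg1, arginase, which turns arginine into ornithine and urea, was not well above background on 8 of 39 arrays. It ranged on LFC from -6.89 at week 6 over a median of -4.71 to -0.71 at week 3, and on HFC from -7.74 at week 6 over a median of -5.41 to 0.89 at day 10. The highest LFC value is that of the week 3 array described above, and without it the highest was -3.79, at week 15. The HFC day 10 level stood 5.75 above LFC at the same time point, and the next highest level outside LFC was -0.45, on HF20 at week 6.

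Csf1r, the receptor for CSF1 and IL-34, ranged on LFC from -0.90 at week 3 over a median of 1.02 to 2.45 at day 6, and on HFC from 0.18 at week 12 over a median of 1.91 to 3.36 at day 10. HFC was the higher at 6 of 10 time points. At week 3 the levels were -0.90 on LFC, -0.03 on HF5, 0.18 on HF20 and -0.15 on HF75, while HFC was at 2.13, so the HFC array stood alone at that time point.

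Whether the high fat diet changed these genes was tested over the 10 shared time points by limma with the time point as a block. None of the 9 members passed an adjusted p of 0.05, where 0% of the 29169 probes tested did (Benjamini-Hochberg over all probes). At an unadjusted p under 0.05 the count was 0 of 9, where 3.05% of all probes had one. The paired differences gave 0 calls by the methods' t-test, which had 0 of 9 below an unadjusted 0.05, where 928 of 29169 probes were. Of the members 7 were higher on HFC, with a median difference of 0.41, beside a median of 0.03 and 53.6% higher over all probes.

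Folr2 was 0.71 higher on HFC (SE 0.40, 95% interval -0.15 to 1.57, limma adjusted p = 0.998), with means of 2.16 ± 0.79 (SD, n = 10 arrays) and 1.45 ± 1.08 (SD, n = 10). Mrc1 was 0.59 higher (SE 0.33, interval -0.12 to 1.31). Csf1r differed by 0.59 (SE 0.42), and its other probes by 0.53 and 0.55. These 3 intervals included 0, and so did those of the remaining members. Clec10a differed by 0.46 (SE 0.32), Retnla by 0.41 (SE 0.32), Cd163 by 0.31 (SE 0.39) and Lyve1 by 0.19 (SE 0.43). Chi3l3 went the other way, by -1.09 (SE 0.57, interval -2.33 to 0.16). Arg1 differed by -0.11 (SE 0.74), a sign that turned under median scaling, normexp background correction and with the slide as a block.

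With these 2 arrays (LFC week 3, HFC week 12) left out, Folr2 differed by 0.51, Mrc1 by 0.51, Clec10a by 0.56 and Csf1r by 0.49. Chi3l3 was at -0.63 and Lyve1, with its sign turned, at -0.02, while Cd163 was at 0.24 and Retnla at 0.27. No member had an unadjusted p under 0.05 in that fit either. Leaving out week 3 alone lowered Mrc1 to 0.38, Folr2 to 0.45, Csf1r to 0.32, Retnla to 0.17 and Cd163 to 0.0592, and leaving out week 12 alone put Chi3l3 at -0.70.

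**Figure D2:**
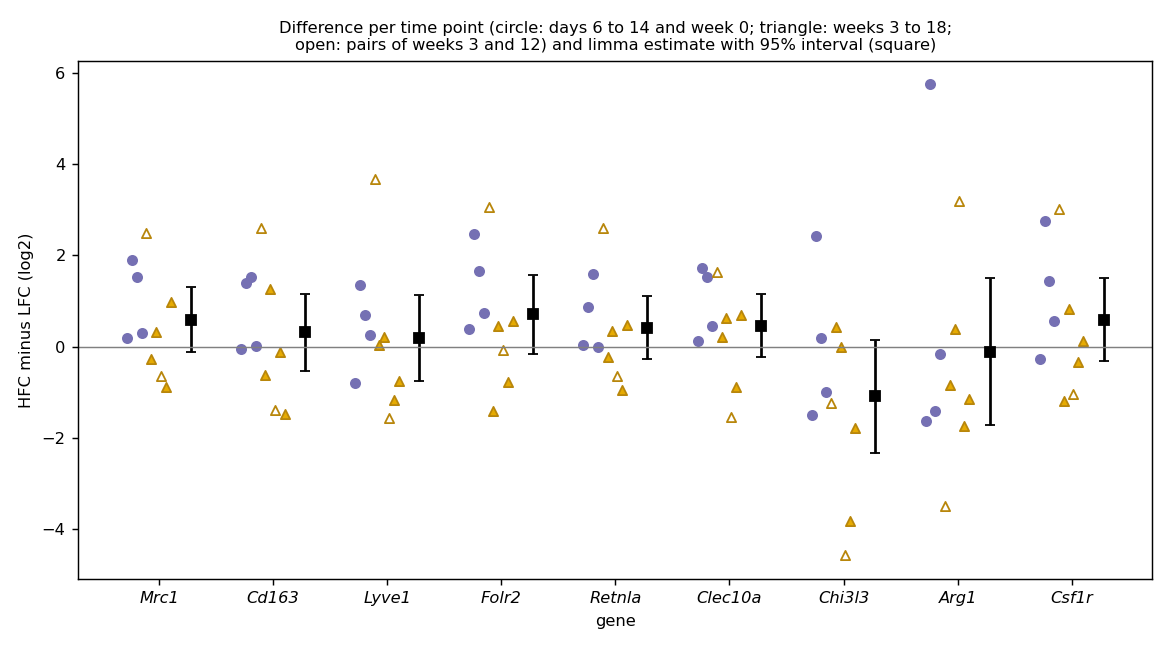
HFC minus LFC in log2 units (vertical axis) for each member (horizontal axis): circles are days 6 to 14 and week 0, triangles weeks 3 to 18, open symbols the pairs of weeks 3 and 12, and squares the limma estimate with its 95% interval. All 9 intervals include 0, from -1.09 for Chi3l3 to 0.71 for Folr2, and the single Arg1 point at 5.75 is day 10.

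Of the marker lists, 14 of 17 general macrophage genes and 15 of 20 further resident macrophage genes were higher on HFC, with medians of 0.32 and 0.24 and none past the threshold. The smallest p-values of the general list belonged to Emr1 (0.75, SE 0.38) and Ctss (0.72, SE 0.37). In the resident list Maf, a transcription factor of macrophages, was at 0.75 (SE 0.40). Emr1 encodes F4/80. Of 18 tested genes of alternative activation 8 were higher, with a median of -0.04, and Ear11 (0.62, SE 0.36) and Chi3l4 (-0.89, SE 0.53) had the smallest p-values. Of 9 genes of the CSF1 axis 4 were higher, with a median of -0.05, Csf2ra at 0.65 (SE 0.42) and Cebpb at -0.35 (SE 0.30).

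Among 15 tested markers of lipid-associated or recruited macrophages, 8 were higher on HFC and the median was 0.12. Trem2, a lipid receptor of those cells, was at 0.89 (SE 0.28, unadjusted p = 0.00792 and adjusted p = 0.998 by limma), and Itgax, the integrin CD11c, at 1.11 (SE 0.36). Markers of other cell types were also read, and none passed. Neutrophil genes were lower on HFC for 7 of 9 tested, with a median of -1.05, S100a9 at -1.19 (SE 0.39) and Ngp at -1.23 (SE 0.41). Epididymis genes had a median of -1.997 (1 of 7 higher, Cst11 at -3.89 with SE 1.37, Lcn9 at -2.54 with SE 1.06), and visceral depot genes one of 0.77 (5 of 6 higher, Msln at 1.14 with SE 0.39, Bnc1 at 1.13 with SE 0.43).

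Of the adipocyte genes, Lep, the hormone leptin, was at 1.67 (SE 0.58). The probes of 8 of the 10 were saturated on some arrays, that of Fabp4 on 39 of 39 and that of Cfd on 27, so no median is given for that list. Lymphatic endothelium had a median of -0.21 (1 of 5 higher), Pdpn at 0.44 (SE 0.26) and Prox1 at -0.71 (SE 0.81). Dendritic cell genes had a median of -0.34 (3 of 7 higher). Of eosinophil genes 2 were tested, Prg2 at -0.79 (SE 0.40) and Ccr3 at 0.02 (SE 0.34), of liver genes also 2, Cps1 at -0.62 (SE 0.66) and Alb at -0.38 (SE 0.83), and of subcutaneous depot genes 3, with Sfrp2 at 0.34 (SE 0.38) and Hoxc10 at 0.44 (SE 0.75). No list member passed the threshold in this comparison. The part of these other cell types in the member differences was not tested.

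Over weeks 3 to 18, where all 5 diets were measured, the diets overlapped for every member. The HFC and LFC arrays were compared in a fit of 30 arrays that also gave the contrasts with KAL-1. In HFC against LFC 0 of 9 members passed, where 0% of 31450 probes did, and 1 of 9 had an unadjusted p under 0.05, where 2.31% of all probes had. That member was Chi3l3, at -1.83 (SE 0.68, interval -3.24 to -0.42, limma unadjusted p = 0.0132, adjusted p = 1.00). Its 6 HFC levels were -0.60, 0.58, -1.13, -2.04, -1.59 and -1.27 from week 3 to week 18, and its LFC levels 0.64, 0.14, -1.11, 2.53, 2.22 and 0.51. HFC was below LFC at weeks 3, 12, 15 and 18, by 0.01 at week 9, and above it at week 6. With both arrays that stood apart left out, the difference was -1.37 (unadjusted p = 0.0905).

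Chi3l3 under KAL-1 was at -0.53, 1.23, -0.82, -1.22, 2.52 and 0.50 on HF5 from week 3 to week 18. On HF20 it was at -1.32, 1.17, -0.52, 0.13, 3.43 and -1.05, and on HF75 at -1.70, 3.91, 0.06, 1.57, 1.80 and -0.69. All 3 dose groups had arrays below the highest HFC level and arrays above it. Against HFC the difference was 1.29 for HF5 (SE 0.68, interval -0.12 to 2.70), 1.31 for HF20 (SE 0.68, interval -0.10 to 2.72) and 1.83 for HF75 (SE 0.68, interval 0.42 to 3.24), with limma adjusted p = 0.954, 0.780 and 1.00. The mean of the 3 doses against HFC was 1.48 (SE 0.56, unadjusted p = 0.014, adjusted p = 1.00). These contrasts and HFC against LFC share the 6 HFC arrays, so they are not independent of each other. The HFC week 12 array had the lowest Chi3l3 level of its diet, and without it and LFC week 3, HF5 differed by 1.03, HF20 by 1.06 and HF75 by 1.58. Without week 15 Chi3l3 differed by 0.73 for HF5 and 0.57 for HF20.

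**Figure D3:**
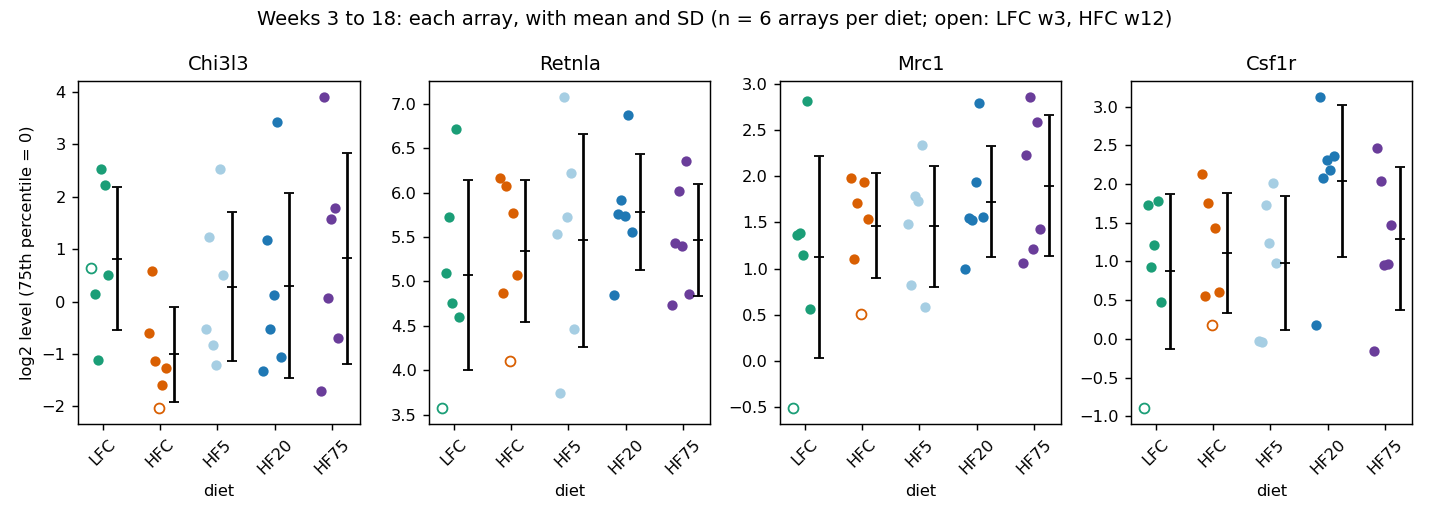
Log2 level (vertical axis, 0 at the 75th percentile of the array) at weeks 3 to 18 for Chi3l3, Retnla, Mrc1 and Csf1r by diet (horizontal axis): points are arrays, open points LFC week 3 and HFC week 12, and bars the mean with SD over 6 arrays. For Chi3l3 the HFC mean was -1.01 and the other means lay between 0.28 and 0.82, with ranges that overlap.

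By its brightest probe, no other member passed or came below an unadjusted p of 0.05 in any dose contrast. In HF5 against HFC 0 of 9 members passed, where 0% of 31450 probes did, and the member differences ran from -0.13 for Csf1r to 1.29 for Chi3l3. In HF20 against HFC it was again 0 of 9 beside 0% of probes, from 0.21 for Cd163 to 1.44 for Arg1. In HF75 against HFC it was 0 of 9 beside 0%, from 0.08 for Arg1 to 1.83 for Chi3l3, and for the mean of the doses 0 of 9 beside 0%. At an unadjusted p under 0.05 the counts were 0 of 9 for HF5 (3.42% of all probes), 0 of 9 for HF20 (4.84%), 1 of 9 for HF75 (1.5%) and 1 of 9 for the mean of the doses (1.75%), in both cases Chi3l3. By the methods' t-test 0 of 9 members had an unadjusted p under 0.05 in any of these contrasts or in HFC against LFC, where 641 to 1020 of 31450 probes had one. The median over members for the mean of the doses was 0.33, and 0.07 with those 2 arrays left out.

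Csf1r on HF20 was at 0.18, 3.13, 2.08, 2.31, 2.17 and 2.36 from week 3 to week 18. On HFC it was at 2.13, 0.55, 1.76, 0.18, 1.43 and 0.61. HF20 was thus the higher at every time point but week 3. This includes week 6, where the visceral depot score was 0.47 on HF20 and -4.15 on HFC. The difference was 0.93 (SE 0.46, interval -0.02 to 1.87, limma unadjusted p = 0.0541, adjusted p = 0.780), and the other Csf1r probes gave 1.14 (SE 0.54, interval 0.03 to 2.26, limma unadjusted p = 0.0443, adjusted p = 0.780) and 0.52 (SE 0.54). Leaving out those 2 arrays gave 0.72. The same gene differed by -0.13 for HF5 (interval -1.07 to 0.82) and by 0.18 for HF75 (interval -0.76 to 1.13), where the second probe gave -0.84 and -0.42.

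The mean of all 4 high fat diets against LFC gave 0 of 9 members past the threshold beside 0% of 31450 probes, and 0 of 9 with an unadjusted p under 0.05 beside 6.1% of all probes. Mrc1 had the smallest p of the members there, with a difference of 0.51 (SE 0.27, interval -0.05 to 1.06) and means of 1.63 ± 0.63 (SD, n = 24 arrays) and 1.13 ± 1.09 (SD, n = 6). It was 0.28 with those 2 arrays left out. In order of diet means, Mrc1 ran from LFC at 1.13 over HF5 and HFC, both at 1.46, and HF20 at 1.72 to HF75 at 1.89. The whole span from LFC to HF75, 0.77, was close to the pooled SD within diets, 0.76. Of the 9 members, 3 had a span of diet means above their own SD within diets.

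Change with time was described within each of the control and high fat diets, weeks 3 to 18 against the earlier time points. These periods were scanned at different times, so scanning and time cannot be told apart. The epididymis score also varied between the LFC arrays. Early it was 6.36 at day 1, 4.91 at day 10 and 4.14 at day 14, but -2.35 at day 6 and -1.43 at week 0. Late it was 4.18 at week 3 and 6.12 at week 9, and between -1.45 and 0.47 at the other weeks. Its part in the differences with time was not tested. Within LFC, 0 of 9 members passed where 0.49% of 30421 probes did (149 probes), and 0 of 9 had an unadjusted p under 0.05 where 5.52% had. The differences were 1.09 for Retnla (SE 0.62), 0.93 for Cd163 (SE 0.53) and 0.81 for Clec10a (SE 0.43), with limma adjusted p = 0.929 for each. Without the week 3 array they were 1.39, 1.17 and 0.99. In that fit 3 of 9 members had an unadjusted p under 0.05 by limma, a count given without its share over all probes. Still none passed. Of the marker lists, the dendritic cell list had the only gene past the threshold in any comparison, Cd209a, a lectin of dendritic cells and macrophages, which rose by 2.31 (SE 0.45, adjusted p = 0.0462). All 10 neutrophil genes were higher late on LFC, with a median of 2.01, and none passed.

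Within HFC, 0 of 9 members passed where 0% of 30582 probes did, and 1 of 9 had an unadjusted p under 0.05, where 16.8% of all probes had. That was Csf1r, with early levels of 2.18, 3.36, 2.21 and 2.05 and the 6 later levels given above. Only week 3, at 2.13, reached the early range. The difference was -1.34 (SE 0.44, interval -2.31 to -0.37, limma unadjusted p = 0.0115, adjusted p = 0.229), with -1.60 and -0.59 for its other probes and -1.15 without the week 12 array. With arrays weighted by their quality the adjusted p became 0.0258, in a fit that called 7204 probes. Folr2 differed by -0.70 (SE 0.45) and Retnla by 0.68 (SE 0.47) in the other direction. Of 17 general macrophage markers 3 were higher late on HFC, with a median of -0.73, while of 16 markers of lipid-associated or recruited macrophages 11 were higher, with a median of 0.69.

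Whether the HFC minus LFC difference itself changed with time was tested on the 10 paired differences. None of the 9 members passed, where 0% of 29169 probes did, and 0 of 9 had an unadjusted p under 0.05, where 5.14% had. All 9 estimates were below 0, from -1.86 for Chi3l3 (SE 1.08) to -0.30 for Lyve1 (SE 0.91), with a median of -0.83, beside a median of 0.15 over all probes. The Folr2 estimate was -1.01 (SE 0.79). Without the pairs of weeks 3 and 12 it was -1.61. In that fit 1 of 9 members had an unadjusted p under 0.05 by limma, and again no member passed. The members share their arrays, so their common sign is not 9 independent results.

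The members varied together from array to array. Over the other 37 arrays, with LFC week 3 and HFC week 12 left out, 24 of 36 pairs had a Benjamini-Hochberg adjusted permutation p under 0.05 for Pearson's r, all with r above 0. The pairs among Mrc1, Cd163, Lyve1, Folr2, Retnla and Clec10a, a grouping made after seeing the values, had r from 0.635 to 0.850 and rho from 0.602 to 0.842. Their adjusted permutation p was 2.4e-05 to 9e-05, where 2.4e-05 rests on the smallest p that 100000 permutations can give, 1e-05. Arrays of a time point share a scan day and are not fully independent, so r was also computed after centring each time point (36 arrays). It then lay between 0.491 and 0.808 for these pairs. With the 2 arrays farthest from the median of the first gene left out it lay between 0.521 and 0.849, so the relations did not rest on those arrays.

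Csf1r went with Folr2 at r = 0.774 and, centred by time point, 0.891, but with Retnla at 0.322 and, centred, 0.737. Arg1 went with Csf1r at r = 0.601 (rho = 0.462, adjusted permutation p = 0.000191 for r) and with Folr2 at 0.426, and with Cd163 at -0.02. Without the 2 arrays of most extreme Arg1 level, r with Csf1r fell to 0.431, and centred by time point it was 0.575. Chi3l3 went with Arg1 at r = 0.442 (rho = 0.370, adjusted permutation p = 0.00999 for r) and with Retnla at 0.0963.

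Some arrays were high or low for many members at once. At week 15, LFC, HF5 and HF20 had 9 of 9 members above their own median over the 37 arrays, as had HF75 at week 9. At week 15 HF75 had 7 and HFC 5. LFC at day 1, HF20 and HF75 at week 3 and HFC at week 18 had 0 of 9. Of weeks 3 to 18, week 15 had the highest mean for 7 of the 9 members, all but Arg1 and Csf1r, and each time point had scan days of its own.

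Scores of the marker lists, the median of centred levels over a list, were set against the members over the same 37 arrays in 126 relations. Genes above background on too few arrays were left out of a score, which used 9 of 10 neutrophil and 6 of 10 epididymis genes. Folr2 went with the further resident macrophage list at r = 0.894 (rho = 0.880) and with the general macrophage list at 0.840. Mrc1, Cd163, Lyve1, Retnla and Clec10a went with the resident list at 0.833, 0.782, 0.805, 0.792 and 0.843. All had an adjusted permutation p of 0.00014, which rests on the smallest p the permutations can give. Csf1r went with the general macrophage list at r = 0.871 (rho = 0.809, centred 0.925) and with the resident list at 0.636. Lyve1 went with the lymphatic endothelium list at 0.160, and with visceral depot genes at 0.560 (rho = 0.634, adjusted permutation p = 0.0033 for r). The lymphatic score used 4 of 6 genes and lacked Prox1, which was above background on 10 arrays.

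Chi3l3 went with the neutrophil list at r = 0.508 (rho = 0.417, centred r = 0.454), with an adjusted permutation p of 0.0102 for r and 0.0557 for rho, so it did not pass by rank. It went with the resident list at 0.321. With the 2 arrays of most extreme Chi3l3 level left out, r was 0.417. The neutrophil score was highest on the arrays of HF20, LFC and HF5 at week 15 and of LFC at week 12, where Chi3l3 was at 3.43, 2.22, 2.52 and 2.53. Next came LFC and HFC at week 6, with scores of 2.01 and 1.17, where Chi3l3 was only at 0.14 and 0.58. The score was at 0.91 on HF75 at week 6, where Chi3l3 was at 3.91. Arg1 went with the general macrophage list at r = 0.615 (rho = 0.434), which fell to 0.411 without the 2 arrays farthest from the median. Cd163 went with the epididymis list at r = -0.456 (rho = -0.316, adjusted permutation p = 0.0326 for r and 0.196 for rho), and no other member passed with that list. The part of these cell types in the member levels was not tested.

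**Figure D4:**
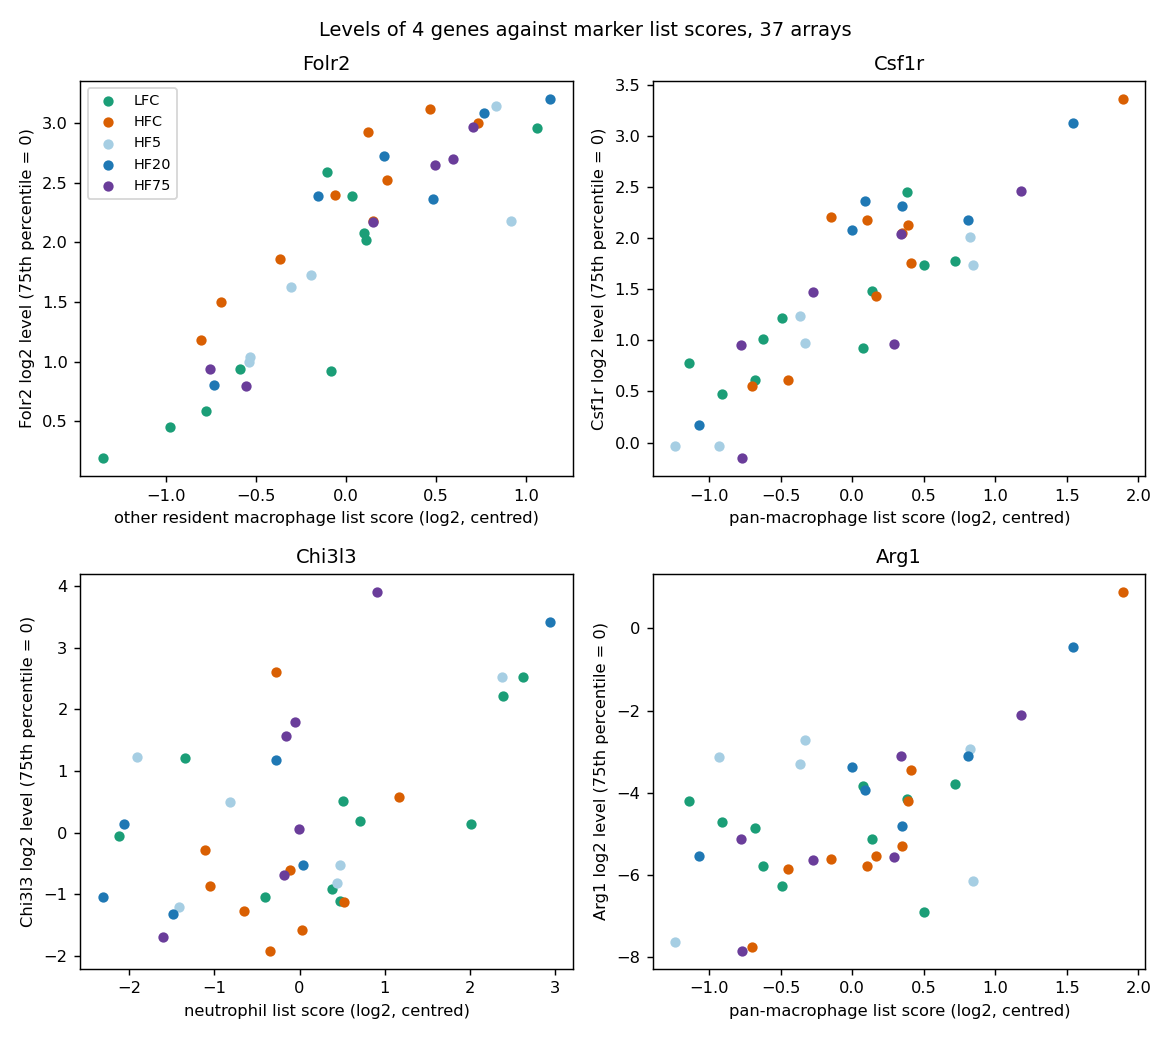
Log2 levels of Folr2, Csf1r, Chi3l3 and Arg1 (vertical axes, 0 at the 75th percentile of the array) against the score of a marker list (horizontal axes, median of centred log2 levels) over 37 arrays coloured by diet. Pearson's r is 0.894, 0.871, 0.508 and 0.615, and the Arg1 relation rests in part on HFC day 10 and HF20 week 6 at the upper right.

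Finally, the gene names with the most similar pattern were sought for each member by Pearson's r over the 37 arrays, among 17612 names above background on at least 30 arrays; these are descriptions with no test. For Mrc1 they were F13a1 (0.862), Clec10a (0.850), 5430427O19Rik (0.842), Folr2 (0.827) and Retnla (0.817). For Folr2 they were Tlr7 (0.883), Cd68 (0.879), F13a1 (0.846), Cd209f (0.844) and C1qc (0.837). F13a1, a coagulation factor subunit that macrophages make, also led for Lyve1 (0.842), ahead of Snap23 (0.828), Zcchc9 (0.806), Alox5 (0.806) and Tlr7 (0.770). For Cd163 the list was Cd209b (0.801), F13a1 (0.766), Tlr4 (0.761), Alox5 (0.731) and Cd209d (0.730).

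For Retnla the nearest names included Ccl24 (0.893), Cd209d (0.858), Pf4 (0.838) and Mrc1 (0.817), and those of Clec10a included Pf4 (0.868), Mrc1 (0.850), Ccl24 (0.843) and Retnla (0.817). Ccl24 and Pf4 encode chemokines. Chi3l3 had Chi3l4, its close paralogue, at 0.942, then a gap to Ifitm6 (0.624), Prg4 (0.614), Retnlg (0.612) and Gm10249 (0.608). The probes of Chi3l3 and Chi3l4 share no run longer than 6 bases, but transcripts of such paralogues may still bind both. For Arg1 the names were Msr1 (0.780), Cyba (0.733), Cd300a (0.723), Cd84 (0.715) and Itgb2 (0.675), and for Csf1r they were C1qb (0.931), Pld4 (0.896), Clec4a3 (0.894), Myo1f (0.878) and Fcgr3 (0.864). For Csf1r these values rose to between 0.931 and 0.948 after centring by time point.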

How the data were processed

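Epididymal adipose RNA was hybridised to 39 one-colour Agilent arrays, grouped by diet and time point from the labels. The deposited scanner files hold probe intensities that the authors obtained with Feature Extraction (version 10.5.1.1 per the file headers, 9.1 per the submitters' processing notes). The authors also deposited a log2 table, each array relative to LFC at its own time point, normalised in GeneSpring GX, which served as an alternative. Its direction, HFC or KAL-1 minus LFC, was checked against the scanner files.

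The processed signal, which Feature Extraction had already corrected for background, was taken as log2 minus the 75th percentile of each array. Control spots were left out and outlier spots set to missing. Probes entered a fit where the number of arrays on which they exceeded background clearly reached the size of the smaller arm (10, 6, 5 or 4). Differences were tested with limma 3.58.1 in R 4.3.3, with the time point as a block for diets and none within a diet, and adjusted by Benjamini-Hochberg over all probes tested. The methods name a t-test of replicates. With a single array for each diet at a time point, it was run on paired differences. Correlations used 100000 permutations, two-sided. Code was tested on simulated data.

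Members and marker lists were chosen with earlier results of these data known. Named list genes were those with the 2 smallest p-values of a list in HFC against LFC, or past the threshold in any comparison. Some items, among the list genes, nearest names and motifs, are not reported here. Alternatives were quantile and median scaling, normexp (offset 50), outlier spots kept, other filters, array weights, other probes, slide as a random block, no time point term, and leaving out arrays or time points. The number of arrays limits the precision. Whether the RNA of an array came from 1 animal or a pool is not given in the sources used here, so p-values measure the spread between these arrays.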

Additional observations from a re-analysis of the deposited data

Results flagged for a closer look

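In 36 groups of 6 or 10 arrays, 1 diet and 1 gene each, 3 held an array far from the rest by Dixon's test, which chance alone gives in about 1 of 20 groups. All levels are log2 with the 75th percentile of the array at 0. Folr2 on the HF20 week 3 array was at 0.80, and the nearest HF20 level was 2.36. Csf1r on the same array was at 0.18, and the nearest HF20 level was 2.08. The epididymis score of that array was 5.16 and its visceral depot score -2.20, and their part in these levels was not tested. At week 3 Csf1r was also low on LFC, HF5 and HF75, from -0.90 to -0.03, while HFC was at 2.13. Clec10a on the HFC week 12 array was at 2.28, and the nearest HFC level was 3.44. That array is 1 of the 2 with a high share of outlier spots.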

How the results depend on the processing

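Of 185 alternatives over the 10 comparisons, 184 gave the same number of members past the threshold, 0. The exception was late against early within HFC with array weights, where 1 member passed, Csf1r at -1.43. That fit called 7204 probes, against 0 without weights, 47 under median scaling and 743 without week 0. Within LFC, 149 probes were called, 97 under quantile normalisation, 78 under median scaling and 0 under normexp. Of 482 alternatives for 24 member differences, 468 kept direction and side of the threshold and 13 reversed. Lyve1 in HFC against LFC was -0.0585 with array weights and -0.0239 without LFC week 3 and HFC week 12, and -0.19 to 0.39 leaving out each time point, lowest without week 3. Arg1 there was 0.0236 under median scaling, 0.0304 under normexp, 0.0507 with the slide as a block, and -0.76 to 0.27 leaving out each time point. Csf1r within LFC was 0.21 with array weights and 0.32 by its other probe of lowest level. The causes were not tested. Without the time point as replicate block, 0 members passed in the 7 diet comparisons. The differences, such as 0.71 for Folr2 and -1.09 for Chi3l3, could not change there. Each diet had 1 array per time point, so only the SE and p can move. Leaving out each time point, Chi3l3 ranged from -2.28 to -1.28 in HFC against LFC over weeks 3 to 18 and from 0.94 to 1.89 for the mean of the doses, lowest without week 15, and Csf1r in HF20 against HFC from 0.60 without week 6 to 1.504 without week 3. Median scaling moved the median of all probes by 0.35 in HF5 against HFC, where 9 members were then higher, not 5, and normexp by -0.33 in the 4 high fat diets against LFC. The slide as a block could not be fitted for the 3 comparisons of time.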
